A study of Mus musculus with 6 samples.

Results

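The inflammasome and pyroptosis genes described here are 10 protein-coding genes chosen by symbol: the sensors Nlrp3, Nlrc4 and Aim2, the adaptor Pycard, the inflammatory caspases Casp1 and Casp4, the pore-forming gasdermin Gsdmd, and the cytokines Il1b, Il18 and Il1a. All 10 were among the 17975 genes of the table and among the 13805 genes tested, and all had at least 10 counts in every liver, so that none was tested through the levels of 1 group alone. RNA was taken from whole livers of 3 WT mice and 3 Hom mice. Hom mice carried NEK7 fl/fl and the transgene Alb-Cre, whose albumin promoter drives Cre in hepatocytes, so that Nek7 is deleted in that cell type. Whole-liver RNA does not show in which other liver cells the gene was intact. The NEK7 fl/fl and Alb-Cre mice were on the C57BL/6 background, and no treatment is named for these livers. The strain of the 3 WT mice, whether they carried floxed alleles, and the age at which these 6 livers were taken are not given in the sources used here. The paper states an age range in weeks for the study's mice in general. It also reports liver fibrosis in surviving Hom mice at an age given in months, without saying that these livers were taken then.

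Inflammasomes are protein complexes that form in the cytosol when a sensor detects damage or a microbial product. NLRP3, which binds NEK7 when it is activated, assembles with the adaptor ASC (encoded by Pycard) and recruits caspase-1, which cleaves the precursors of IL-1 beta and IL-18 and also gasdermin D. The amino-terminal part of gasdermin D forms pores in the plasma membrane, and the lytic death that follows is called pyroptosis. Caspase-11 (encoded by mouse Casp4) binds lipopolysaccharide in the cytosol and cleaves gasdermin D without such a sensor, which is called the non-canonical pathway. In the liver, the canonical components are known mainly from macrophages and other immune cells, while hepatocytes make up most of the tissue. The comparison addresses whether the transcripts of this system differed in livers whose hepatocytes had lost a partner of NLRP3. Transcript levels say nothing of assembly, cleavage or secretion.

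The libraries held between 19349418 and 19730236 estimated counts each, so a gene with few counts is limited by its own counts rather than by unequal depth. Several livers stood apart. WT replicate 1 held most of the neutrophil transcripts of its group: Ngp, a neutrophil granule gene, reached 57.0 CPM there (a scaled count, corrected for library size and composition), against 0 and 0.061 CPM in the other 2. WT replicate 3 and, less so, Hom replicate 1 held transcripts of keratinocytes, with 2659 and 784 counts of Krt14 against 103 to 200 in WT replicates 1 and 2. The list of keratinocyte genes was written after these counts had been seen. The Y-linked gene Ddx3y had no count in Hom replicate 1 and at least 630 in every other liver, and the labels do not give the sex of single mice. WT replicate 1 also led its group in macrophage transcripts, with a summed level of 954 CPM over the resident macrophage markers described further on, against 456 and 401 CPM in the other WT livers, and 175 CPM over the monocyte-derived ones, against 68.2 and 93.5 CPM. Nek7 itself was lower in every Hom liver, at 65.2 ± 3.36 CPM (SD, n = 3 mice) in WT and 16.4 ± 1.83 CPM (SD, n = 3 mice) in Hom livers.

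Of the 10 genes, 3 were higher (Casp4, Casp1 and Gsdmd) and 1 was lower (Il18) in Hom livers at an adjusted p below 0.05 in edgeR's quasi-likelihood test. Over all genes tested, 21.5% were higher and 20.1% were lower, so the number of called genes in this group was near the background. What stood out was the size of 1 of these differences. Casp4 ranked 4 of 13805 by p-value and 108 by log2 fold change. Their log2 fold changes had a median of 0.67 over the 10 genes, against −0.0018 over all genes tested. Their summed level was 48.9 to 58.5 CPM in WT livers and 84.5 to 99.2 CPM in Hom livers, without overlap. Scaling mattered for these counts. With library size alone, in place of the trimmed mean of M-values (TMM) factors that also correct for composition, the median of all genes moved to 0.45, 6574 genes were higher against 642 lower, and 6 of the 10 genes were higher with none lower (0 of 10). With the TMM factors, 2974 genes were higher and 2780 lower.

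**Figure D1:**
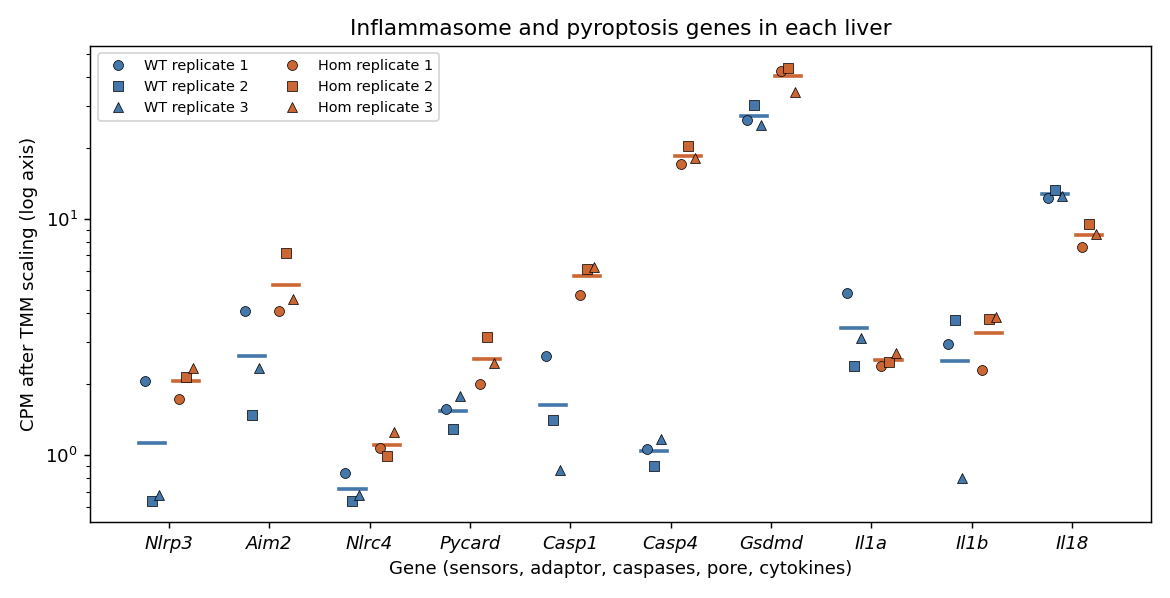
Level of each of the 10 genes in CPM (log axis) in the 3 WT and the 3 Hom livers, with 1 point per liver and a bar at the group mean. The Casp4 points of the 2 groups lie far apart (0.898 to 1.17 CPM against 17.0 to 20.2 CPM), while those of Il1b, Il1a, Nlrp3 and Aim2 overlap.

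The inflammatory caspases showed the largest differences of the group. Casp4 (NCBI Gene 12363, plus strand, chr9:5308828-5336783 in GRCm38) encodes caspase-11, the cytosolic sensor of lipopolysaccharide. Its estimated counts, rounded to whole numbers, were 19, 14 and 19 in the WT livers (replicates 1 to 3, in that order throughout) and 364, 491 and 418 in the Hom livers. Every Hom liver lay far above every WT liver, and the spread within each group was small beside the distance between them. After scaling, Casp4 averaged 1.04 ± 0.136 CPM (SD, n = 3 mice) in WT and 18.4 ± 1.66 CPM (SD, n = 3 mice) in Hom livers. This was a log2 fold change of 4.13 (SE 0.16, edgeR adjusted p = 9.42e-05), or 17.5-fold. An exact two-sided permutation test on the same values gave p = 0.1, the smallest that 3 mice against 3 allow. With any 1 liver left out, the log2 fold change stayed between 4.04 and 4.21.

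Casp1 (NCBI Gene 12362, plus strand, chr9:5298517-5307265), the caspase that canonical inflammasomes activate, differed less and was more variable. Its counts were 47, 22 and 14 in the WT livers and 102, 149 and 145 in the Hom livers. The groups did not overlap, although the WT livers differed among themselves by more than the Hom livers did in relative terms. The scaled levels were 1.63 ± 0.903 CPM (SD, n = 3 mice) and 5.72 ± 0.831 CPM (SD, n = 3 mice). The log2 fold change was 1.80 (SE 0.38, edgeR adjusted p = 0.0104), and it ranged from 1.49 to 2.32 with any 1 liver left out. Because Casp4 and Casp1 differ in length, their levels were compared as TPM (a level that divides by transcript length). The ratio of Casp4 to Casp1 in TPM was 0.44, 0.752 and 1.66 in the WT livers and 3.75, 3.63 and 3.16 in the Hom livers. Casp1 thus exceeded Casp4 in 2 of 3 WT livers, and Casp4 exceeded Casp1 in 3 of 3 Hom livers.

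The caspases lie side by side on chromosome 9, and the third mouse gene of this cluster, Casp12, is their neighbour. Casp12 (chr9:5345430-5373032) encodes a caspase of the same inflammatory family, and it was in the list of sensors and regulators described further on. Its counts were 26, 17 and 17 in the WT livers and 845, 1239 and 1112 in the Hom livers. Scaled levels were 1.20 ± 0.223 CPM (SD, n = 3 mice) in WT and 46.2 ± 6.02 CPM (SD, n = 3 mice) in Hom livers, and the log2 fold change was 5.26 (SE 0.17, edgeR adjusted p = 9.23e-05). All 3 neighbours were therefore higher in Hom livers, by widely different amounts. The genes of the table that start within 1000 kb of the start of Casp4 were examined after these values had been seen. Pdgfd, which encodes a platelet-derived growth factor chain and starts at 860 kb on the far side of Casp12, was also higher (log2 fold change 2.40, SE 0.30, edgeR adjusted p = 0.00161). On the Casp1 side, Msantd4 at −932 kb was higher by a smaller amount (0.38, edgeR adjusted p = 0.0224) and Kbtbd3 at −999 kb did not pass the test (0.42, edgeR adjusted p = 0.201). Gria4 was not tested because it had too few counts. The estimated counts divide reads that match several transcripts, so a part of the reads of near-identical stretches could be assigned to either caspase.

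**Figure D2:**
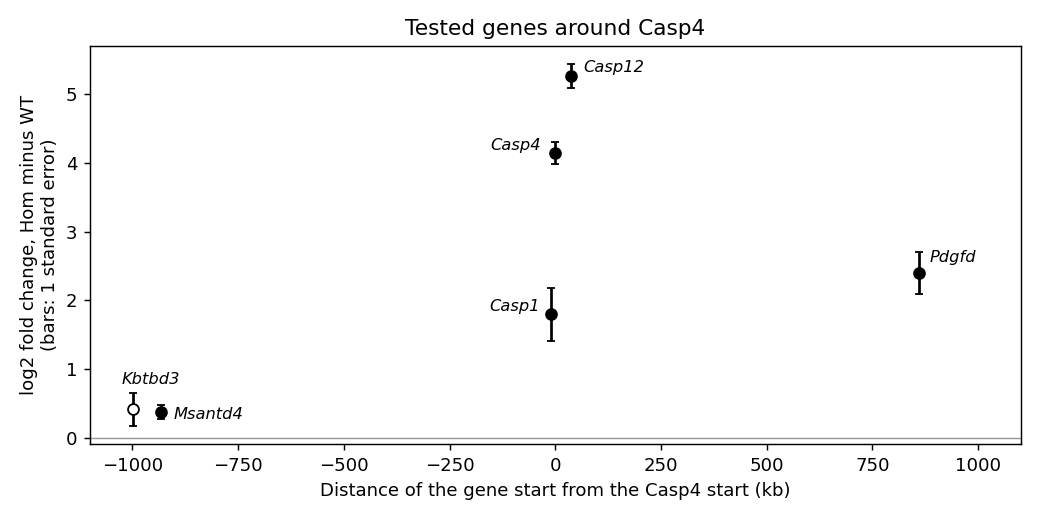
Log2 fold change (Hom against WT, edgeR, with its standard error) of the genes tested within 1000 kb of the start of Casp4, against distance from that start in kb. Casp12, Casp4 and Casp1 lie together near 0 kb at 5.26, 4.13 and 1.80, and the more distant Pdgfd, Msantd4 and Kbtbd3 are at 2.40, 0.38 and 0.42.

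The promoters of the 3 clustered caspases are shown because the genes lie together and were all higher in Hom livers. Each sequence is the 250 bases before a transcript start in RefSeq (GRCm38.p6, plus strand, 5′ to 3′). Capitals mark matches, on either strand, to any of 5 motifs of factors known from immune cells: the NF-kappaB site, the core of the interferon-stimulated response element (GAAANNGAA), the GAS element that STAT proteins bind (TTCNNNGAA), the PU.1 core (GAGGAAG) and the AP-1 site (TGANTCA). The Casp4 window is that of the first of its 2 listed starts.
Casp1 chr9:5298267-5298516: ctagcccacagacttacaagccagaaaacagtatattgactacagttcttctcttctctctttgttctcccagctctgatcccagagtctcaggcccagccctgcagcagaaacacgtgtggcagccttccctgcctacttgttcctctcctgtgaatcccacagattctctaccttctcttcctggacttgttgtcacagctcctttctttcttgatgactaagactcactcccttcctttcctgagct
Casp4 chr9:5308599-5308848: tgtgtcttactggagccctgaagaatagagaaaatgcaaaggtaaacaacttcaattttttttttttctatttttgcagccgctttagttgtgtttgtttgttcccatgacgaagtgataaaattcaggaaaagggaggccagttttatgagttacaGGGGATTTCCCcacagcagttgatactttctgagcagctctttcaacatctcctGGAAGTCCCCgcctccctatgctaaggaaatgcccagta
Casp12 chr9:5345226-5345475: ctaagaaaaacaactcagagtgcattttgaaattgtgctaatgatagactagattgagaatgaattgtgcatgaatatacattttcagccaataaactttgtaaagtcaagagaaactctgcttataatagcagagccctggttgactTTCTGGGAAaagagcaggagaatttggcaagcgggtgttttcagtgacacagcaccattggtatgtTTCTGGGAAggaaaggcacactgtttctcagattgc

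The 3 windows held different matches. That of Casp4 held NF-kappaB matches at −93 to −84, −92 to −83 and −39 to −30, counted from the transcript start, of which the first and second overlap. That of Casp12 held GAS matches at −102 to −94 and −36 to −28, and that of Casp1 held no match to any of the 5 motifs. Such matches are not rare: of 32851 mouse promoter windows of the same length, 7.25% held the NF-kappaB site and 7.02% the GAS element. The shares were 7.13% for the interferon-stimulated response element core, 10.6% for the PU.1 core and 6.75% for the AP-1 site. Of the 10 genes, 9 had a promoter in the table used, and Gsdmd did not. Nlrp3 held an NF-kappaB match at one start and PU.1 matches at the other, Aim2 and Pycard held PU.1 matches, and Il1a held PU.1 and AP-1 matches. The windows of Il1b, Il18 and Nlrc4 held no match, which says only that these letters are absent from those bases.

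Gsdmd, the substrate that both caspases cleave to open the membrane pore, was the most abundant of the 10 genes per length in both groups. Gsdmd (NCBI Gene 69146, plus strand, chr15:75862327-75867408) had 469, 473 and 406 counts in the WT livers and 902, 1059 and 800 in the Hom livers. The groups did not overlap. Its scaled level was 27.2 ± 2.82 CPM (SD, n = 3 mice) in WT and 40.1 ± 4.91 CPM (SD, n = 3 mice) in Hom livers. The log2 fold change was 0.56 (SE 0.12, edgeR adjusted p = 0.0108). Without WT replicate 3 and Hom replicate 1, the livers with keratinocyte transcripts, it was 0.47 and no longer passed the test (edgeR adjusted p = 0.0690). The caspase transcript rose by more than that of its substrate: the TPM ratio of Casp4 to Gsdmd ranged from 0.0412 to 0.0678 in WT and from 0.498 to 0.676 in Hom livers, without overlap.

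Among the cytokines, Il18 was lower, and neither Il1b nor Il1a passed the test. Il18 (NCBI Gene 16173, plus strand, chr9:50554827-50581840) encodes a cytokine that is made as a stored precursor. Its counts were 220, 206 and 204 in the WT livers and 162, 231 and 200 in the Hom livers, which overlap before scaling. After TMM scaling it had a level of 12.7 ± 0.480 CPM (SD, n = 3 mice) and 8.57 ± 0.982 CPM (SD, n = 3 mice), without overlap, and the log2 fold change was −0.56 (SE 0.13, edgeR adjusted p = 0.0120). This call rested on the scaling. With library size alone the log2 fold change was −0.10 (edgeR adjusted p = 0.624), with a correction for gene length it was −0.36 (edgeR adjusted p = 0.0738), and in TPM the levels were 18.7 ± 1.44 (SD, n = 3 mice) in WT and 18.6 ± 3.81 (SD, n = 3 mice) in Hom livers.

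Il1b (NCBI Gene 16176, minus strand, chr2:129364570-129371139), which encodes the cytokine most closely tied to caspase-1, had 53, 58 and 13 counts in the WT livers and 49, 91 and 89 in the Hom livers. WT replicate 3 was low, and the other WT livers lay within the range of the Hom livers. The levels were 2.49 ± 1.52 CPM (SD, n = 3 mice) and 3.29 ± 0.871 CPM (SD, n = 3 mice), with a log2 fold change of 0.40 (SE 0.51, edgeR adjusted p = 0.556). Without WT replicate 3 the log2 fold change was −0.02 (edgeR adjusted p = 0.958), so even the sign rested on that liver. Il1a (NCBI Gene 16175, minus strand, chr2:129299610-129309972), an alarmin that is active without caspase-1 cleavage, had 87, 37 and 51 counts in the WT livers and 51, 60 and 63 in the Hom livers. Its groups overlapped, at 3.46 ± 1.27 CPM (SD, n = 3 mice) and 2.52 ± 0.173 CPM (SD, n = 3 mice), and the log2 fold change was −0.46 (SE 0.29, edgeR adjusted p = 0.243). A difference in either of these 2 cytokines was not detectable at this number of mice, which does not show that their levels were equal.

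The sensors and the adaptor had few counts, and none of the 4 passed the test. Nlrp3 (NCBI Gene 216799, plus strand, chr11:59541568-59566956), the sensor that NEK7 binds, had 37, 10 and 11 counts in the WT livers and 37, 52 and 54 in the Hom livers. WT replicate 1 was as high as the lowest Hom liver before scaling, and the other WT livers were lower than every Hom liver. The levels were 1.13 ± 0.813 CPM (SD, n = 3 mice) and 2.07 ± 0.308 CPM (SD, n = 3 mice), and the log2 fold change was 0.86 (SE 0.48, edgeR adjusted p = 0.186). Without WT replicate 1, the liver with the most neutrophil and macrophage transcripts of its group, Nlrp3 was higher in Hom livers (log2 fold change 1.64, edgeR adjusted p = 0.0108).

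Aim2 (NCBI Gene 383619, plus strand, chr1:173350879-173466040), a sensor of cytosolic DNA, showed a like pattern. It had 73, 23 and 38 counts in the WT livers and 87, 173 and 106 in the Hom livers, so that only WT replicate 1 overlapped the Hom livers after scaling. The log2 fold change was 0.99 (SE 0.40, edgeR adjusted p = 0.0841), and without WT replicate 1 it was 1.46 and passed the test (edgeR adjusted p = 0.0222). It also passed in DESeq2 (adjusted p = 0.0467). Over the 10 genes, WT replicate 1 was the highest WT liver for 5 (Nlrp3, Casp1, Il1a, Aim2 and Nlrc4), and without it 5 of the 10 were higher in Hom livers and 1 was lower. Of all 14208 genes tested without that liver, 3057 were higher and 2750 lower. The part of the neutrophil and macrophage transcripts in the levels of the 10 genes was not tested.

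Pycard (NCBI Gene 66824, minus strand, chr7:127989708-127993867), which encodes the adaptor ASC, had 28, 20 and 29 counts in the WT livers and 43, 77 and 57 in the Hom livers. Its groups did not overlap, at 1.54 ± 0.250 CPM (SD, n = 3 mice) and 2.55 ± 0.589 CPM (SD, n = 3 mice), but the log2 fold change of 0.72 (SE 0.27) missed the threshold (edgeR adjusted p = 0.0691). It passed when genes had to have at least 10 counts in every liver (0.77, edgeR adjusted p = 0.0438). Nlrc4 (NCBI Gene 268973, minus strand, chr17:74425438-74459142), the sensor that works with NAIP proteins on bacterial flagellin and secretion systems, had 15, 10 and 11 counts in the WT livers and 23, 24 and 29 in the Hom livers. It was the least abundant of the 10 genes per length, and its groups did not overlap after scaling. Its log2 fold change was 0.61 (SE 0.28, edgeR adjusted p = 0.125). For these 4 genes a difference was not established at this depth and number of mice, and the data do not show that they were equal either.

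**Figure D3:**
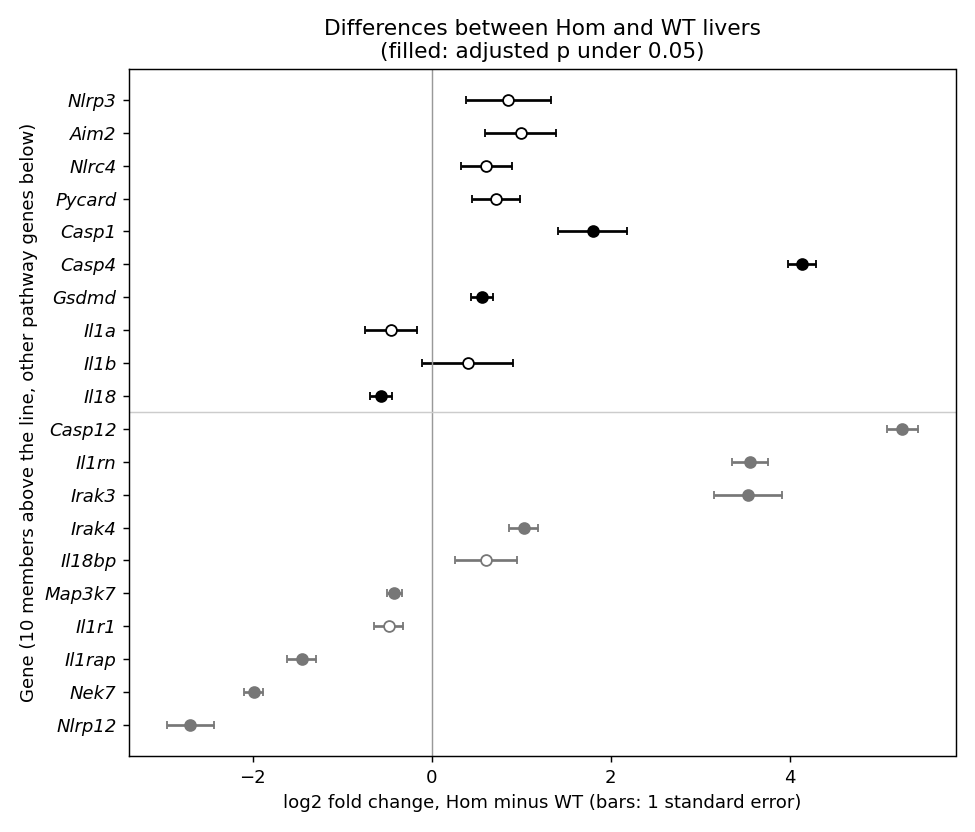
Log2 fold change (Hom against WT, edgeR) with its standard error of the 10 genes, ordered by role, and, under the line, of 10 other genes of the wider pathway described further on, with filled points for an adjusted p below 0.05. Among the 10 genes, Casp4 at 4.13 stands alone, followed by Casp1 at 1.80, while the other 8 lie between −0.56 and 0.99, and Casp12 at 5.26 and Nlrp12 at −2.69 mark the ends of the other set.

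Per length, the order of the genes changed between the groups. In WT livers, Gsdmd (22.7 ± 2.74 TPM, SD, n = 3 mice) and Il18 (18.7 ± 1.44 TPM, SD, n = 3 mice) led and their ranges overlapped. A wide gap separated them from the other 8 genes, which lay at mean TPM values from 2.74 for Il1b to 0.250 for Nlrc4, each overlapping its neighbour in the order. Casp4 was in the lower part of that series, at 1.20 ± 0.197 TPM (SD, n = 3 mice). In Hom livers the order was Gsdmd (51.5 ± 7.17 TPM, SD, n = 3 mice), Casp4 (30.4 ± 5.41 TPM), Il18 (18.6 ± 3.81 TPM) and Casp1 (8.71 ± 1.81 TPM), with no overlap between neighbours among these 4. Il1b, Aim2, Il1a and Pycard followed with overlapping ranges, at means from 5.61 to 2.73 TPM, and Nlrp3 (1.18 ± 0.242 TPM) and Nlrc4 (0.59 ± 0.0889 TPM) were last without overlapping each other. Among the Hom livers, replicate 1 was the lowest in CPM for 8 of the 10 genes.

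Transcripts of the proteins that restrain the 2 cytokines were set beside them in each liver. Il1rn, which encodes the IL-1 receptor antagonist, had 39, 29 and 45 counts in the WT livers and 673, 647 and 509 in the Hom livers. Its scaled level went from 2.27 ± 0.459 CPM (SD, n = 3 mice) to 26.7 ± 4.73 CPM (SD, n = 3 mice), a log2 fold change of 3.55 (SE 0.20, edgeR adjusted p = 1.81e-04). The TPM ratio of Il1rn to Il1b was 0.398, 0.279 and 2.03 in the WT livers and 7.55, 3.84 and 3.15 in the Hom livers. The antagonist transcript thus exceeded that of Il1b in 3 of 3 Hom livers and, among WT livers, in replicate 3, where Il1b was low. Il18bp, whose product binds and neutralises IL-18, had 15.1 ± 7.19 CPM (SD, n = 3 mice) and 23.1 ± 6.67 CPM (SD, n = 3 mice) and did not pass the test (log2 fold change 0.61, SE 0.35, edgeR adjusted p = 0.194). Without WT replicate 1 it passed (1.07, edgeR adjusted p = 0.0195). Its TPM ratio to Il18 was 0.608 to 1.37 in WT and 1.45 to 2.35 in Hom livers.

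**Figure D4:**
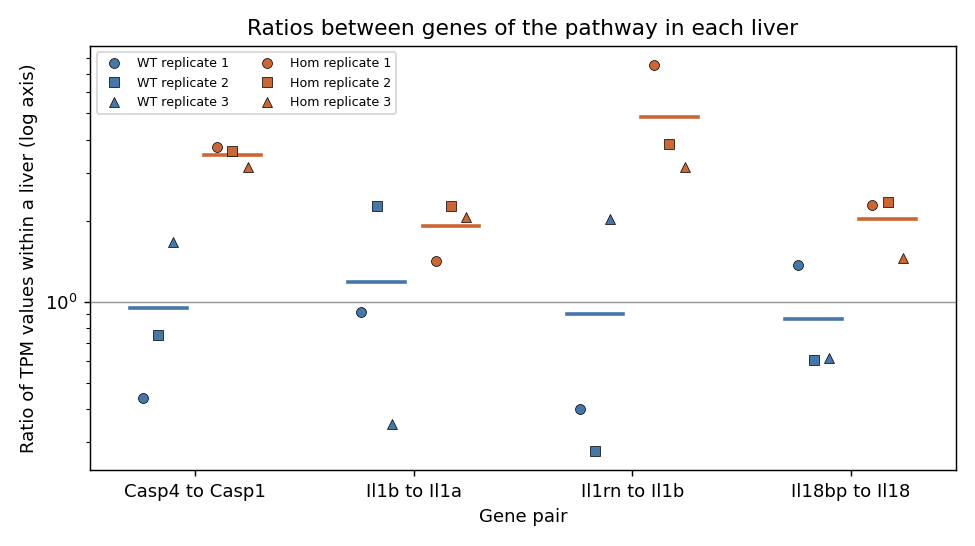
Ratio of TPM values within each liver (log axis, grey line at 1) for 4 pairs of inflammasome and IL-1 family genes, with 1 point per WT or Hom liver and a bar at the group mean. The ratios of Casp4 to Casp1, Il1rn to Il1b and Il18bp to Il18 do not overlap between the groups, and the ratio of Il1b to Il1a does (0.352 to 2.27 in WT and 1.41 to 2.27 in Hom livers).

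The wider pathway was described by 4 lists with 56 other genes, of which 54 were in the table and 42 were tested. Of these, 7 were higher and 8 were lower, counts near the background of 21.5% and 20.1% over all genes tested. Their median log2 fold change was 0.081. With library size alone 18 were higher and 4 lower, and without WT replicate 1, where 46 were tested, 12 were higher and 7 lower. Among 21 tested sensors and regulators, 4 were higher and 5 lower. The higher genes were Casp12 and, named after their values had been seen, Naip2 (log2 fold change 1.72), which detects bacterial secretion systems for NLRC4, P2rx7 (1.92), the ATP-gated channel that triggers NLRP3, and Nlrp1a (2.00). Nlrp1a had few counts: 4, 6 and 3 in the WT livers and 18, 27 and 29 in the Hom livers. The 5 lower genes were Nek7 and Nlrp12, and, likewise named afterwards, Nlrp6, Txnip and Naip1. Txnip, which encodes a thioredoxin-binding protein, did not pass with library size alone (edgeR adjusted p = 0.109). Naip1 barely passed (edgeR adjusted p = 0.0496) and did not pass without Hom replicate 1 (0.0596), WT replicate 1 (0.140) or WT replicate 3 (0.0541), with library size alone (0.109) or with the replicate number as a block (0.123).

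Some of the lower sensors were abundant in WT liver. Nlrp12, a sensor of the NLR family, had 36.1 ± 11.6 CPM (SD, n = 3 mice) in WT and 5.57 ± 0.668 CPM (SD, n = 3 mice) in Hom livers (log2 fold change −2.69, SE 0.26, edgeR adjusted p = 7.28e-04). Nlrp6, of the same family, had 185 ± 13.9 CPM (SD, n = 3 mice) and 88.0 ± 9.35 CPM (SD, n = 3 mice), with a log2 fold change of −1.07 (SE 0.11, edgeR adjusted p = 8.31e-04). Per length, Nlrp6 was at 60.5 ± 2.16 TPM (SD, n = 3 mice) in WT livers, where Nlrp3 was at 0.463 ± 0.387 TPM (SD, n = 3 mice). Naip1 and Naip2 are close paralogs, and the division of reads between them is uncertain.

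In the list of gasdermins and cell rupture 2 genes had enough counts to be tested, and neither passed: Gsdme, another gasdermin (0.21, edgeR adjusted p = 0.610), and Ninj1, whose product ruptures the membrane after pore formation (−0.04, edgeR adjusted p = 0.809). Of 11 tested IL-1 family ligands, receptors and inhibitors, Il1rn was higher and Il1rap was lower. Il1rap, the accessory chain that IL-1 receptors need to signal, had 153 ± 18.9 CPM (SD, n = 3 mice) in WT and 56.1 ± 10.5 CPM (SD, n = 3 mice) in Hom livers (−1.45, SE 0.16, edgeR adjusted p = 0.00112). Il1r1, the receptor of both IL-1 cytokines, missed the threshold (−0.48, SE 0.16, edgeR adjusted p = 0.0515) and passed without WT replicate 3 (adjusted p = 0.0235).

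Of 8 tested genes of IL-1 receptor signalling, 2 were higher and 2 lower. Irak3, a kinase-like protein that dampens this signalling, had 47, 22 and 20 counts in the WT livers and 612, 472 and 317 in the Hom livers. No Hom liver overlapped a WT liver, and the log2 fold change was 3.53 (SE 0.38, edgeR adjusted p = 9.63e-04). Irak4, the kinase that starts the cascade, was also higher (1.03, SE 0.16, edgeR adjusted p = 0.00353). Map3k7, which encodes the kinase TAK1, was lower (−0.42, SE 0.083, edgeR adjusted p = 0.00808), but with library size alone its log2 fold change was 0.04. Irak2, named after its values had been seen, was lower by a similar amount (−0.39, edgeR adjusted p = 0.0195) and did not pass without WT replicate 3 (adjusted p = 0.0517) or with the replicate number as a block (0.0515). With library size alone its log2 fold change was 0.073 (edgeR adjusted p = 0.519). Irak1, Traf6, Myd88 and Tollip did not pass the test.

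Whole liver holds many cell types, so marker lists were measured beside the 10 genes. Fewer cells of a type and less RNA per cell cannot be told apart in such samples. Of 12 monocyte-derived macrophage markers, 9 were higher and none lower (0 of 12), with a median log2 fold change of 2.11. Their summed level was 68.2 to 175 CPM in WT and 379 to 426 CPM in Hom livers, without overlap. The chemokine receptor gene Ccr2 (3.19) was among the higher markers, while Itgam (1.37, edgeR adjusted p = 0.0687) did not pass. The log2 fold changes of the 12 ran from 1.30 (Lyz2) to 4.75 (Cx3cr1), both genes named after their values had been seen. Of 14 resident macrophage markers Cd68 was higher (0.78) and Cd163 (−2.89), Timd4 (−2.38) and Clec4f (−1.59) were lower, while the other 10 did not pass. Clec4f did not pass without WT replicate 1 (edgeR adjusted p = 0.0541) or without Hom replicate 1 (0.0539), and Cd68 did not pass without WT replicate 3 (0.0993). The sums overlapped (401 to 954 and 577 to 773 CPM) through WT replicate 1 alone, and without that liver 6 of the 14 were higher and 2 lower.

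Other cell types moved as well. Of 11 cholangiocyte markers 10 were higher, and their sum was 61.6 to 90.2 CPM in WT and 668 to 909 CPM in Hom livers. Of 10 stellate cell markers 4 were higher and 1 lower, with sums of 337 to 414 and 591 to 659 CPM, and of 10 sinusoidal endothelial markers 6 were lower and none higher (0 of 10), with sums of 256 to 351 and 183 to 187 CPM. Of 12 hepatocyte markers 9 were lower, and their sum was 162602 to 195314 CPM in WT and 68522 to 93853 CPM in Hom livers. None of 7 tested neutrophil markers (0 of 7) and 1 of 7 tested lymphocyte markers, Cd3e, passed the test in edgeR, and no neutrophil marker had an unadjusted p below 0.05 or passed in DESeq2. Without WT replicate 1, 3 of the 7 neutrophil markers were higher, and the other WT sums (9.30 and 16.2 CPM) lay below every Hom sum. Cd3e did not pass without WT replicate 3 (edgeR adjusted p = 0.108). Neutrophil sums were 9.30 to 171 CPM in WT and 25.4 to 67.4 CPM in Hom livers, and lymphocyte sums 6.35 to 10.5 and 8.59 to 15.7 CPM. The 2 groups of livers thus differed in the markers of several cell types in the same comparison in which Casp4, Casp1, Gsdmd and Il18 differed. No marker of these lists was at 0 in all 6 livers, hepatocyte transcripts were present in every library, and the part of the cell makeup in the levels of the 10 genes was not tested.

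**Figure D5:**
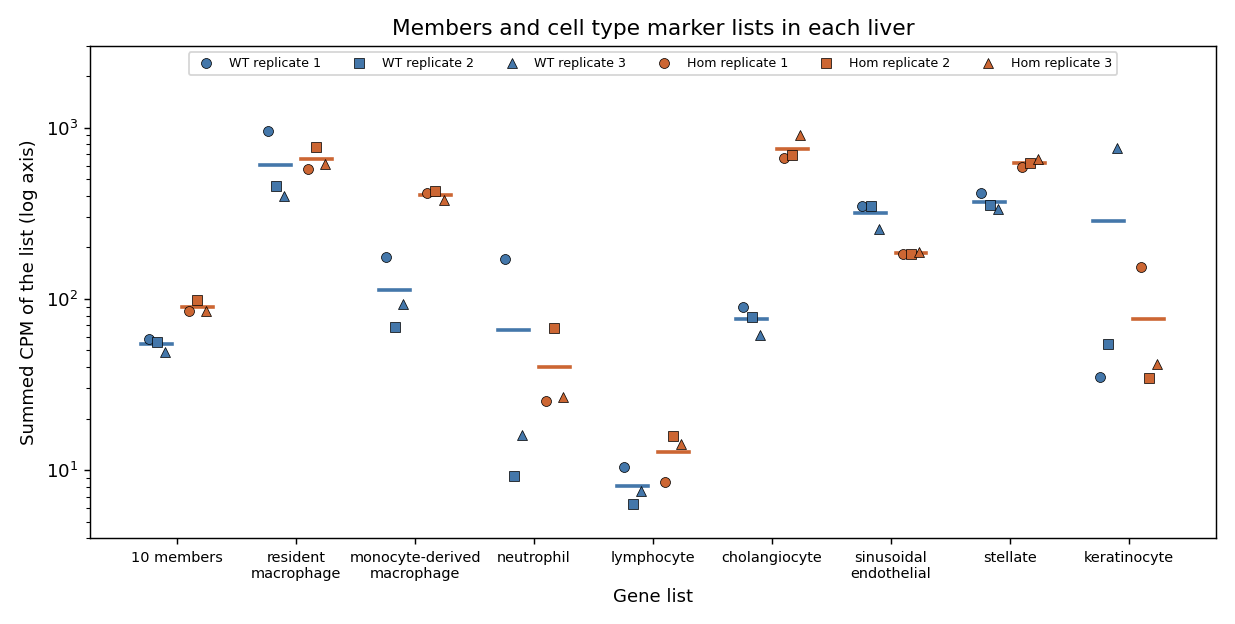
Summed CPM (log axis) of the 10 inflammasome and pyroptosis genes and of the marker genes of 8 cell types, keratinocytes included, with 1 point per WT or Hom liver and a bar at the group mean. The sums of the 10 genes and those of cholangiocyte, monocyte-derived macrophage and stellate markers are higher in 3 of 3 Hom livers than in any WT liver, and sinusoidal endothelial sums are lower. Resident macrophage, neutrophil, lymphocyte and keratinocyte sums overlap, those of resident macrophages, neutrophils and lymphocytes through WT replicate 1 alone.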

How the data were processed

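RNA of 6 mouse livers (3 WT, 3 Hom, 1 liver per mouse) was extracted with Trizol and sequenced on the DNBSEQ platform. The submitters' processing notes name HISAT2 2.0.4, Bowtie2 2.2.5, RSEM 1.2.12 and mm9. The authors deposited expected counts per gene, not scaled between samples (65.9% of them whole), with FPKM values (per length and library size) and TPM values, and group means whose names are crossed and were not used. Strandedness is not given in the sources used here.

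Expected counts were rounded and analysed with edgeR 4.0.16 in R 4.3.3: filterByExpr, TMM factors, and the quasi-likelihood test with Benjamini-Hochberg adjustment over 13805 genes at 0.05. A fold is 2 to the power of the fitted log2 fold change. TPM was used for levels between genes, and FPKM only for the gene length it implies. The procedure was tested on simulated data. The alternatives were DESeq2 1.42.0, library size alone or upper-quartile factors, other count filters, a replicate block, a loess correction for gene length, a fold change minimum and each liver left out in turn. The 10 genes and all lists were chosen with earlier results of these data known. Beside the 10 genes the text names, by rule, up to 3 genes per pathway list (past the threshold, a mean of at least 1 CPM) together with Il18bp and Il1r1. Coordinates are from GENCODE M21 (GRCm38), matched by symbol. Of the gasdermin and cell rupture list, 2 genes are not reported here.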

Additional observations from a re-analysis of the deposited data

How the results depend on the processing

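Single livers were not screened by an outlier rule, since groups of 3 cannot be tested for outliers. The scaling mattered most: with library size alone 6574 genes were higher and 642 lower, 6 of the 10 inflammasome genes were higher and 0 lower, 18 pathway genes were higher and 4 lower, and Map3k7 moved to a log2 fold change of 0.035. The 1 lower gene of the 10, Il18, was no longer called with the length correction (0 lower) or when calls had to exceed 1 in absolute log2 fold change (0 lower). With 1 liver left out, 1986 to 3057 genes were higher and 1767 to 2750 lower, the fewest lower genes (1829 and 1767) being called without Hom replicates 2 and 3. Of the 10 genes 3 to 5 were then higher and 1 lower, and of the pathway genes 7 to 12 were higher and 6 to 7 lower, the highest counts being those without WT replicate 1. The log2 fold change of Il1b ranged from −0.023 (without WT replicate 3) to 0.79. Over 20 named genes and 280 comparisons with an alternative, 263 kept their direction and side of the threshold, 3 lost the call, 12 gained it and 2 reversed. With both livers that held keratinocyte transcripts left out, a choice made after seeing the data, 2 of the 10 genes were higher and 1 lower. Pairing of mice by replicate number was not seen, though groups of 3 cannot exclude it. The correlations of same-numbered deviations (−0.109, −0.0563 and −0.0494) lay within the range of differently numbered ones (−0.18 to 0.22). With the replicate block 2383 genes were higher and 2214 lower, and the same number of the 10 genes were called, 3 higher and 1 lower. Causes of these shifts were not tested. Depth limits genes with few counts, such as Nlrp3, Nlrc4 and Pycard, which had at most 77 counts in any liver.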
